A study of Homo sapiens and Mus musculus with 8 samples.

Results

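The lysosome genes examined here encode the enzymes, membrane proteins and carrier proteins of the lysosome, with TFEB and TFE3, transcription factors that act on many of them. They were taken by name, from a list made with earlier results of these data known, as 35 human symbols in the K562 table of 35141 genes and 7 mouse identifiers in the BaF3-T315I table of 22457 genes, 42 entries in all, and each was found in its table. The mouse table carries no gene names. Its 7 identifiers are called Ctsd, Ctsb, Lamp1, Lamp2, Npc2, Tpp1 and Pla2g15 after the pairing that came with the list, which was not checked against a mouse annotation here, and each has its human counterpart among the 35.

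BaF3-T315I cells are mouse hematopoietic cells that carry BCR-ABL with the T315I mutation, brought in with a retroviral vector. K562 cells are a human CML cell line with native BCR-ABL. Each line was cultured for 48 h with JOA, an ent-kaurene diterpenoid, at 2 μM, or without it as the control, and each of the 4 groups has 2 libraries of polyadenylated RNA, 8 in all. The control groups of both lines are labelled only as control, and the labels do not say whether the replicates were separate cultures, so the p-values cover the spread of these libraries alone. The comparison asks how lysosome genes were expressed in cells cultured with JOA, which the study examined as an inducer of differentiation in CML cells. In bulk RNA, fewer cells of a type and less RNA per cell cannot be told apart.

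Lysosomes are acidic compartments in which proteins, glycans and lipids are broken down. Their hydrolases carry a mannose 6-phosphate tag that directs them there, and glycosylated membrane proteins such as LAMP1 and LAMP2 line the inner face of the membrane. TFEB and TFE3 enter the nucleus when mTORC1 at the lysosome is inactive. They bind E-boxes, here meaning sites with the core CACGTG, in the promoters of many lysosomal genes. The longer form of this site in lysosomal genes is named the CLEAR element, and its palindromic core TCACGTGA is searched for here.

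The E-box is shown first, as a site known from the promoters of many lysosomal genes, and the list did not use it. Since it is known from such genes, a raised share among them is no independent finding. RefSeq promoters (GRCh38.p14), 250 bases before to 50 after a gene start, were matched by symbol for 27 of the 35 human genes, in 41 windows, while LAMP2, CTSB, HEXA, ASAH1, PSAP, NAGLU, ARSA and SGSH had no match. CACGTG, which reads the same on both strands, stood in a promoter of 9 of the 27 genes (33.3%), and in a promoter of 8.77% of the 27305 genes with a window of this length. The core TCACGTGA, also the same on both strands and each time including a CACGTG, stood in 5 of the 27 genes (18.5%) and in 1.18% of all genes. The 5 genes were LAMP1, CTSA, GAA, CLN3 and MCOLN1, and their 8 sites are given 5′ to 3′ on the strand of the gene, with TCACGTGA in capitals.
LAMP1, chr13:113297204-113297223, plus strand: gcgggaTCACGTGAcgcccg
LAMP1, chr13:113297231-113297250, plus strand: cgcagcTCACGTGAcaagcg
CTSA, chr20:45891303-45891322, plus strand: cggagtTCACGTGActcgta
GAA, chr17:80101498-80101517, plus strand: gccgcgTCACGTGAcccacc
GAA, chr17:80101543-80101562, plus strand: cgccggTCACGTGAcccgcc
MCOLN1, chr19:7522576-7522595, plus strand: aggcggTCACGTGAggggct
MCOLN1, chr19:7522603-7522622, plus strand: accgggTCACGTGAccgagg
CLN3, chr16:28492063-28492082, minus strand: gtgctgTCACGTGAtccgac

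LAMP1 held the most E-boxes of any gene on the list, 6 in its 300-base window. Its 250 bases before the gene start are given beside those of TPP1, which has no CACGTG in its window and, as given below, had the largest log2 fold change on the list in K562 cells. CACGTG is in capitals, and the last E-box of LAMP1 runs over the gene start and is therefore among the sites above only.
LAMP1, chr13:113296989-113297238, plus strand: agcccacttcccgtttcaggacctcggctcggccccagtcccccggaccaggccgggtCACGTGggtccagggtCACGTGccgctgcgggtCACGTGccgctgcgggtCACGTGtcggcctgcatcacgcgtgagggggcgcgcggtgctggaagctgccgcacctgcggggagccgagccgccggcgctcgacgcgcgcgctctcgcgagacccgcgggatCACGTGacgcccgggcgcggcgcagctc
TPP1, chr11:6619423-6619672, minus strand: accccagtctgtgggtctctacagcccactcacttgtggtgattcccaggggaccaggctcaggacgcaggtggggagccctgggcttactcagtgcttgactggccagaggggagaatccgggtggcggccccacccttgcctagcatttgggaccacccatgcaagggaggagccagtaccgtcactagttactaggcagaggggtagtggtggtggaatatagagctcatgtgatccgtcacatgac

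The deposited values are FPKM, reads scaled to the length of the gene and the reads of the library, and their sums ran from 279624 to 348007 over the 8 libraries. Whole reads recovered from the K562 values gave depths of 22625597 to 23292638 reads per library, and the BaF3-T315I libraries stood at 1 to 1.198 times the depth of control replicate 1. In K562 control replicate 1 the recovered reads of all genes summed to 23680146, above its recovered depth of 23292638. This mismatch was not resolved, so the K562 depths and reads are approximate. Testing was limited to genes whose mean over the 4 libraries of their line reached 0.5 FPKM, and was made on log2(FPKM + 0.5) with limma for 15635 genes of the K562 table and 12872 of the BaF3-T315I table, and fold changes on this scale understate those of low genes. The calls required a p under 0.05 after Benjamini-Hochberg adjustment over all genes tested, together with a log2 fold change of at least 0.58 in either direction. The median log2 fold change of all genes was 0.096 in the K562 line and -0.11 in the BaF3-T315I line, and other scalings of the libraries moved it to between -0.029 and 0.18 and to between -0.17 and -0.0062. The markers of the BaF3-T315I cells were not checked, for want of gene names.

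In BaF3-T315I cells, all 7 lysosome genes rose with JOA, by 2.4 to 8.35 times in mean FPKM, and limma called each of them higher (adjusted p = 0.00665 to 0.00858). The same rule called 9.38% of all genes tested higher and 15.2% lower, 1207 and 1961 genes, which median-ratio scaling turned to 1581 and 1504. Since the list was made with such results known, the 7 calls describe these genes and are no independent support for a response of lysosome genes. For each of the 7 genes the JOA values both exceeded the 2 control values, as they did for 28.5% of all genes, and for 0 of the 7 both were below (44.5%). The median log2 fold change of the 7 genes was 1.65, against -0.11 for all genes. Together the 7 genes held 0.286% and 0.211% of the summed FPKM of the controls and 0.747% and 0.904% of that of the JOA libraries.

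Pla2g15 (ENSMUSG00000031903) encodes a phospholipase of the lysosome that acts on glycerophospholipids. Its level was 11.3 and 5.84 FPKM in the controls and 64.1 and 79.2 FPKM with JOA. Both JOA values stood far above both controls, although the controls themselves differed widely. The log2 fold change was 3.05 (standard error, SE, of 0.32, limma adjusted p = 0.0074), the largest of the 12872 genes tested in this line.

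Among the proteases, Ctsd (ENSMUSG00000007891) encodes cathepsin D, the main aspartic protease of the lysosome. It had 102 and 75 FPKM in the controls and 483 and 492 FPKM with JOA, so that the JOA libraries lay close together and 5.52 times above the control mean. Its log2 fold change of 2.47 (SE 0.17, limma adjusted p = 0.00665) was the 10th largest of all genes tested. Ctsb (ENSMUSG00000021939), the gene of the cysteine protease cathepsin B, had 64.6 and 53.3 FPKM in the controls and 152 and 159 FPKM with JOA. The log2 fold change of Ctsb was 1.40 (SE 0.13, limma adjusted p = 0.00688), with no overlap of the groups. Tpp1 (ENSMUSG00000030894) encodes tripeptidyl peptidase, which removes tripeptides from the ends of proteins and is lost in a form of neuronal ceroid lipofuscinosis in humans. Its values were 57.4 and 46.4 FPKM in the controls and 143 and 185 FPKM with JOA. All of them were higher with JOA, with a log2 fold change of 1.65 (SE 0.18, limma adjusted p = 0.00768).

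The abundant membrane glycoprotein gene Lamp1 (ENSMUSG00000031447) stood at rank 24 of 22457 genes by mean level in BaF3-T315I cells. It had 616 and 427 FPKM in the controls and 1584 and 1887 FPKM with JOA, a log2 fold change of 1.75 (SE 0.22, limma adjusted p = 0.00858). Lamp2 (ENSMUSG00000016534), which encodes a related membrane protein with a part in autophagy, was the lowest of the 7 genes in the JOA libraries. Its controls were alike at 12.4 FPKM each, and its JOA values were 26.4 and 33.3 FPKM, a log2 fold change of 1.22 (SE 0.14, limma adjusted p = 0.00789). Npc2 (ENSMUSG00000021242) encodes the soluble protein that carries cholesterol inside the lysosome. It had 72.5 and 58.9 FPKM in the controls and 147 and 176 FPKM with JOA, again without overlap, and a log2 fold change of 1.29 (SE 0.15, limma adjusted p = 0.00827).

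**Figure D1:**
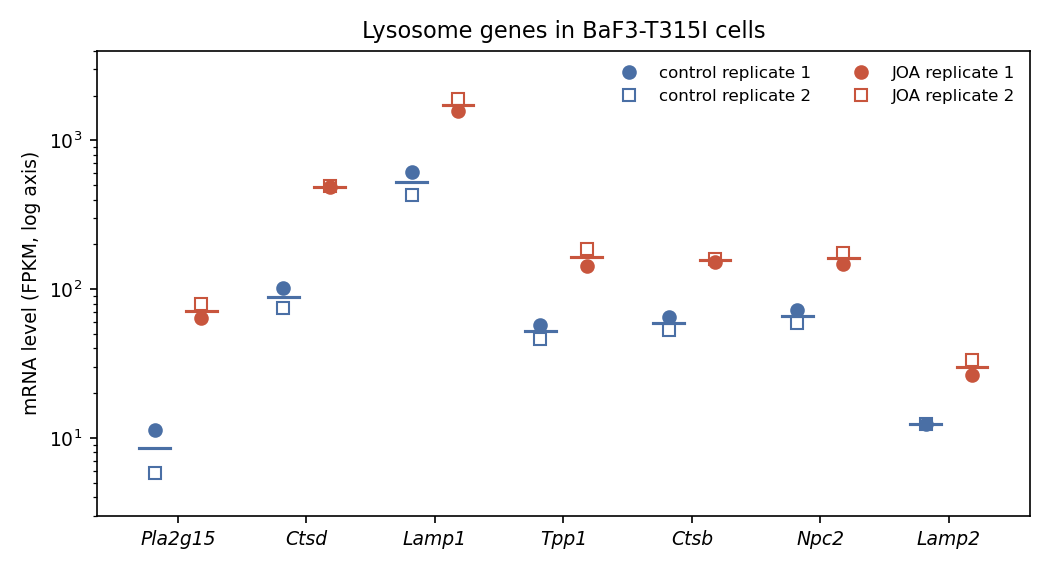
Levels of the 7 mouse lysosome genes in FPKM (log axis) in each BaF3-T315I library, with control libraries in blue, JOA libraries in red and group means (n = 2) as lines. Every JOA value stands above both controls of its gene, from Lamp2 at 12.4 FPKM in the controls and 26.4 and 33.3 with JOA to Lamp1 at 616 and 427 and 1584 and 1887.

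The calls in BaF3-T315I cells depended on both controls. Without control replicate 2, limma called 0 of the 7 genes (adjusted p = 0.0878 to 0.0885) and 0 of all genes in either direction, while all 7 had an unadjusted p under 0.05 and log2 fold changes of 1.15 to 2.60. Without control replicate 1, 2 of the 7 genes were called (adjusted p = 0.049 to 0.0599 over the 7), beside 96 genes higher and 73 lower of all 12872, with log2 fold changes of 1.22 to 3.50.

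In K562 cells, the same direction was common among the lysosome genes but the differences were small, and limma called 0 of the 33 tested genes higher and 0 lower, as it called 0 (0%) of all 15635 genes tested in either direction. The smallest adjusted p on the list was 0.226. Of the 33 genes, 26 had a positive log2 fold change, as did 62.3% of all genes tested, and 22 to 29 had one under the other scalings. The median was 0.31, against 0.096 for all genes. In 23 of the 33 the JOA values both exceeded the control values (36.8% of all genes tested), and in 4 they were both below (18.3%). At an unadjusted p under 0.05, 15 were higher (11.4% of all genes) and 1, CTSZ, was lower (5.82% of all genes), and with the fold threshold added 4 were higher (5.38%), TPP1, NPC2, IDS and SCARB2, and 0 lower (2.38%). The background of this looser rule, 841 genes higher and 372 lower, became 532 and 685 when scaled by median ratios, or 1221 and 242 when scaled to TPM. The 15 became 5 without control replicate 1, 6 without control replicate 2 and 9 without JOA replicate 2, and likewise 5 with median-ratio scaling, 10 without a variance trend and 19 with TPM scaling. The 4 became 7 without JOA replicate 1. With voom weights on the recovered reads, limma called 0 of the 33, and an unadjusted p under 0.05 was reached by 16 in the higher and 1 in the lower direction. The 35 genes held 0.313% and 0.295% of the summed FPKM of the controls and 0.372% and 0.373% of that of the JOA libraries.

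Markers of the erythroid program of K562 cells, and of other blood cells, differed in the same libraries. The 12 erythroid genes examined included the globins HBG1 and HBG2 and the transcription factor GATA1. Their summed level was 5490 and 5121 FPKM in the controls and 2736 and 1862 FPKM with JOA. All 12 lay below both controls, as did 18.3% of all genes tested. Of 10 monocyte and macrophage markers, cells in which lysosomes are abundant, 1, LYZ, passed the minimum mean, and CSF1R, MARCO, MRC1, CD163 and CD68 were under 0.1 FPKM on average. The summed level of these 10 genes was 22.4 and 16.9 FPKM in the controls and 30.7 and 21.3 FPKM with JOA, with overlap. In both JOA libraries 3 of the 10, ADGRE1, CD163 and MSR1, lay above both controls (36.8% of all genes tested). None lay below in both (18.3%). The 3 genes were all under the minimum mean. ADGRE1 had 0.0116 and 0.0938 FPKM in the controls and 0.28 and 0.966 FPKM with JOA. For 6 granulocyte genes the summed level was 7.82 and 10.2 FPKM in the controls and 15 and 36.1 FPKM with JOA, mostly from AZU1, a granule protein gene, with 5.08 and 6.9 FPKM and 11.7 and 28.3 FPKM. For 6 megakaryocyte genes it was 6.35 and 7.13 FPKM and 8.56 and 11.3 FPKM, so that both sums were higher in the JOA libraries without overlap. Of the 6 granulocyte genes, 2 lay above both controls (36.8% of all genes tested) and 1, LTF, lay below (18.3%). Of the 6 megakaryocyte genes, 4 lay above and 0 below. The 13 mitochondrially encoded genes summed to 57061 and 62297 FPKM in the controls and 46651 and 42558 FPKM with JOA. The part of these shifts in the values of the lysosome genes was not tested.

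TFEB and TFE3, members of the MiT/TFE family of transcription factors, were expressed at very different levels. TFE3 (ENSG00000068323, chromosome X of GRCh38 from 49028726 to 49043486) had 23.5 and 24.1 FPKM in the controls and 27.9 and 34.2 FPKM with JOA. The groups did not overlap, and the log2 fold change was 0.37 (SE 0.13, limma adjusted p = 0.278), or 0.22 both without JOA replicate 2 and with median-ratio scaling. TFEB (ENSG00000112561, chromosome 6 from 41683978 to 41736259) had 1.38 and 0.985 FPKM in the controls and 1.47 and 1.73 FPKM with JOA, from 181, 128, 192 and 221 reads. Its groups stood next to each other, with a log2 fold change of 0.33 (SE 0.21, limma adjusted p = 0.423). The spread between its controls was larger than the gap between the nearest libraries of the groups, 1.38 and 1.47 FPKM. Its log2 fold change was 0.16 without control replicate 2, 0.50 without control replicate 1 and 0.13 with quantile normalization.

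Among the tested enzymes and carriers, TPP1, NPC2 and IDS had the largest log2 fold changes, followed by GAA, given with the glycosidases, and SGSH. TPP1 (ENSG00000166340, chromosome 11 from 6612763 to 6619485) had 27.7 and 25.9 FPKM in the controls and 52.3 and 42.8 FPKM with JOA. Its JOA mean was 1.77 times its control mean, and the log2 fold change was 0.81 (SE 0.13, limma adjusted p = 0.226), rank 571 of the 15635 genes tested. NPC2 (ENSG00000119655, chromosome 14 from 74476192 to 74494177) had 4.17 and 4.49 FPKM in the controls and 7.35 and 7.62 FPKM with JOA. Both groups were tight and well apart, with a log2 fold change of 0.73 (SE 0.11, limma adjusted p = 0.226). IDS (ENSG00000010404, chromosome X from 149476990 to 149521096) encodes iduronate sulfatase, which takes part in the breakdown of dermatan and heparan sulfate. It had 3 and 2.92 FPKM in the controls and 4.81 and 5.35 FPKM with JOA, a log2 fold change of 0.69 (SE 0.13, limma adjusted p = 0.236). SGSH (ENSG00000181523, chromosome 17 from 80206716 to 80220923), the gene of the sulfamidase of heparan sulfate breakdown, had 3.47 and 3.83 FPKM in the controls and 5.14 and 5.81 FPKM with JOA. Its log2 fold change was 0.53 (SE 0.13, limma adjusted p = 0.244), and its groups did not overlap either.

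The sulfatases did not all stand together. ARSA, which acts on sulfatide, had a log2 fold change of 0.14, and ARSB (ENSG00000113273, chromosome 5 from 78777209 to 78986087), which acts on dermatan sulfate, had 0.669 and 0.593 FPKM in the controls and 0.56 and 0.461 FPKM with JOA, a log2 fold change of -0.16 (SE 0.23, limma adjusted p = 0.715). ARSB was the lowest gene that passed the minimum mean, with 94 to 141 reads per library.

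Membrane proteins ran from SCARB2 to LAMP1. SCARB2 (ENSG00000138760, chromosome 4 from 76158733 to 76234536) encodes LIMP-2, the receptor that brings glucocerebrosidase to the lysosome. It had 2.69 and 2.5 FPKM in the controls and 4.18 and 4.71 FPKM with JOA, a log2 fold change of 0.68 (SE 0.13, limma adjusted p = 0.236). NPC1, the membrane protein that passes on cholesterol from NPC2, had a log2 fold change of 0.49. LAMP2 (ENSG00000005893, chromosome X from 120427827 to 120469365) had 25.3 and 25.2 FPKM in the controls and 35.3 and 31.7 FPKM with JOA, and a log2 fold change of 0.40 (SE 0.10, limma adjusted p = 0.247). For these 3 genes both JOA libraries stood above both controls. LAMP1 (ENSG00000185896, chromosome 13 from 113297241 to 113323672) had 12.4 and 9.64 FPKM in the controls and 11.7 and 7.33 FPKM with JOA. Its groups overlapped, and its log2 fold change of -0.23 (SE 0.25, limma adjusted p = 0.64) turned to 0.095 without JOA replicate 2. The tetraspanin gene CD63 (ENSG00000135404, chromosome 12 from 55725323 to 55729707) had 79.5 and 71.1 FPKM in the controls and 78.2 and 74.6 FPKM with JOA, with overlap and a log2 fold change of 0.022 (SE 0.10), which was -0.12 with median-ratio scaling. The calcium channel gene MCOLN1 overlapped too, at a log2 fold change of 0.032.

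The proteases were spread in both directions. CTSZ (ENSG00000101160, chromosome 20 from 58995185 to 59007247), the gene of cathepsin Z, had 99.6 and 79.2 FPKM in the controls and 70.7 and 50.3 FPKM with JOA. Both JOA values were below the controls, but the gap between the nearest libraries of different groups, 79.2 and 70.7 FPKM, was smaller than the gap within either group. The log2 fold change was -0.57 (SE 0.21, limma adjusted p = 0.281), the lowest on the list, at rank 15068 of the 15635 genes. Leaving out JOA replicate 1 gave -0.81, and leaving out JOA replicate 2 gave -0.33. CTSC (ENSG00000109861, chromosome 11 from 88293592 to 88337787), the gene of dipeptidyl peptidase I, which activates serine proteases of granules, had 14.1 and 12 FPKM in the controls and 11.6 and 9.47 FPKM with JOA. Its log2 fold change was -0.30 (SE 0.15, limma adjusted p = 0.36), and leaving out the same libraries gave -0.44 and -0.16.

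The genes of cathepsin D and cathepsin B were both higher in BaF3-T315I cells with JOA. In K562 cells neither was called, and the difference between them was not tested. CTSB (ENSG00000164733, chromosome 8 from 11842524 to 11869448) had 37.5 and 33.6 FPKM in the controls and 45.5 and 42.5 FPKM with JOA, a log2 fold change of 0.31 (SE 0.11, limma adjusted p = 0.275). CTSD (ENSG00000117984, chromosome 11 from 1752752 to 1764573) had 10.8 and 8.62 FPKM in the controls and 9.87 and 8.43 FPKM with JOA. The groups of CTSD overlapped, at a log2 fold change of -0.077 (SE 0.16, limma adjusted p = 0.801), which was 0.015 with TPM scaling. The cysteine protease gene CTSL had a log2 fold change of 0.23 without overlap, and CTSA, which protects NEU1 and GLB1 in a complex, one of -0.059 with overlap.

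Of 6 genes of lipid breakdown, 5 passed the minimum mean, with a median log2 fold change of 0.31. These 5 had both JOA values above the controls, as had 36.8% of all genes tested. PLA2G15 (ENSG00000103066, chromosome 16 from 68245304 to 68261062), the counterpart of the gene with the largest increase in BaF3-T315I cells, had 3.24 and 3.09 FPKM in the controls and 4.66 and 3.74 FPKM with JOA. Its JOA libraries differed more than its controls, and its log2 fold change was 0.35 (SE 0.15, limma adjusted p = 0.313), or 0.21 both without JOA replicate 1 and with quantile normalization, and 0.23 with median-ratio scaling. PSAP (ENSG00000197746, chromosome 10 from 71816298 to 71851375), whose product is cut into the saposins that present lipids to their hydrolases, was the most abundant gene on the list, at rank 54 of 35141. It had 348 and 351 FPKM in the controls and 401 and 436 FPKM with JOA, a log2 fold change of 0.26 (SE 0.1, limma adjusted p = 0.289). The sphingomyelinase gene SMPD1 had a log2 fold change of 0.33, the ceramidase gene ASAH1 one of 0.31 and the palmitoyl-protein thioesterase gene PPT1 one of 0.19.

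Of the glycosidases, 6 of 8 lay above both controls (36.8% of all genes tested) and 1, GLA, lay below (18.3%). Their log2 fold changes ran from -0.087 for the galactosidase gene GLA to 0.53 for GAA. GAA (ENSG00000171298, chromosome 17 from 80101556 to 80119879), which breaks down glycogen in the lysosome, had 6.2 and 7.93 FPKM in the controls and 8.69 and 12.3 FPKM with JOA. The 2 inner values, 7.93 and 8.69, were close, and the log2 fold change, 0.53 (SE 0.21, limma adjusted p = 0.299), was 0.29 without JOA replicate 2. GUSB, the beta-glucuronidase gene, had a log2 fold change of 0.41 with a standard error of 0.095, the smallest unadjusted p of the glycosidases (0.00844 from limma). The sialidase gene NEU1 had a log2 fold change of 0.38, the mannosidase gene MAN2B1 one of 0.31 and the beta-galactosidase gene GLB1 one of 0.15. HEXA and NAGLU were near 0, at 0.06 and 0.0048.

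**Figure D2:**
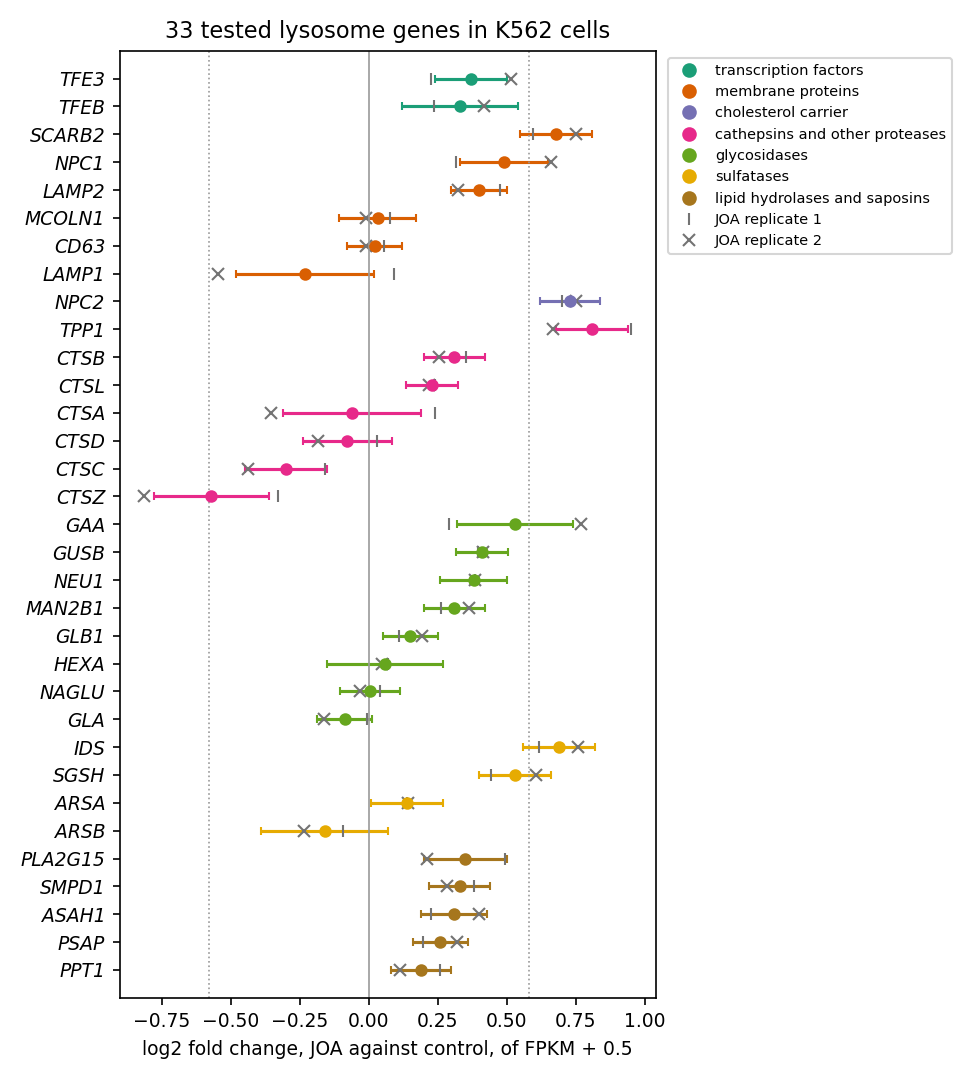
Log2 fold change of FPKM + 0.5 in K562 cells, JOA against control (n = 2 libraries each), for the 33 tested lysosome genes by role, with standard error bars from limma. Grey signs give each JOA library against the control mean, dotted lines mark 0.58 in either direction, and the points run from CTSZ at -0.57 to TPP1 at 0.81.

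The minimum mean left out LIPA and CLN3. LIPA (ENSG00000107798, chromosome 10 from 89213569 to 89414557), the gene of lysosomal acid lipase, had 2, 2, 4 and 8 reads in control replicates 1 and 2 and JOA replicates 1 and 2, and CLN3 (ENSG00000188603, chromosome 16 from 28474111 to 28495575), a membrane protein gene, had 21, 35, 51 and 30 reads. At so few reads a difference in LIPA was not detectable, and the groups of CLN3 overlapped. Levels of genes that overlap others are uncertain, since reads in shared bases could have been left out or given to the other gene. In GENCODE 29, 25.2% of the exonic bases of CLN3 also lie in exons of AC138894.1 on the same strand, 41.7% of those of CTSD in AC068580.4, 21.2% of those of MAN2B1 and 17.4% of those of IDS in other genes, and 11.6% of those of TPP1 in AC091564.7. Over the 35 genes, 6 shared more than 5% of their exonic bases on the same strand and 25 shared none, NPC2 shared 2.62%, and SCARB2 and SGSH shared none. The counting is not stated to use strand, and 8 of the 35 shared more than 5% with a gene on the opposite strand.

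Levels spanned 4 orders of magnitude, from PSAP at a mean of 384 FPKM through CD63 at 75.9 and CTSZ at 74.9 to LIPA at 0.0356. CD63 and CTSZ were not apart beyond their spread. CTSL, GUSB, CTSB and TPP1, at means of 47.8, 41.5, 39.8 and 37.2 FPKM, overlapped in single libraries, as did GLA and GLB1 at 26.7 and 26.4. Below 1 FPKM were HEXA at 0.782, ARSB at 0.571, CLN3 at 0.151 and LIPA.

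**Figure D3:**
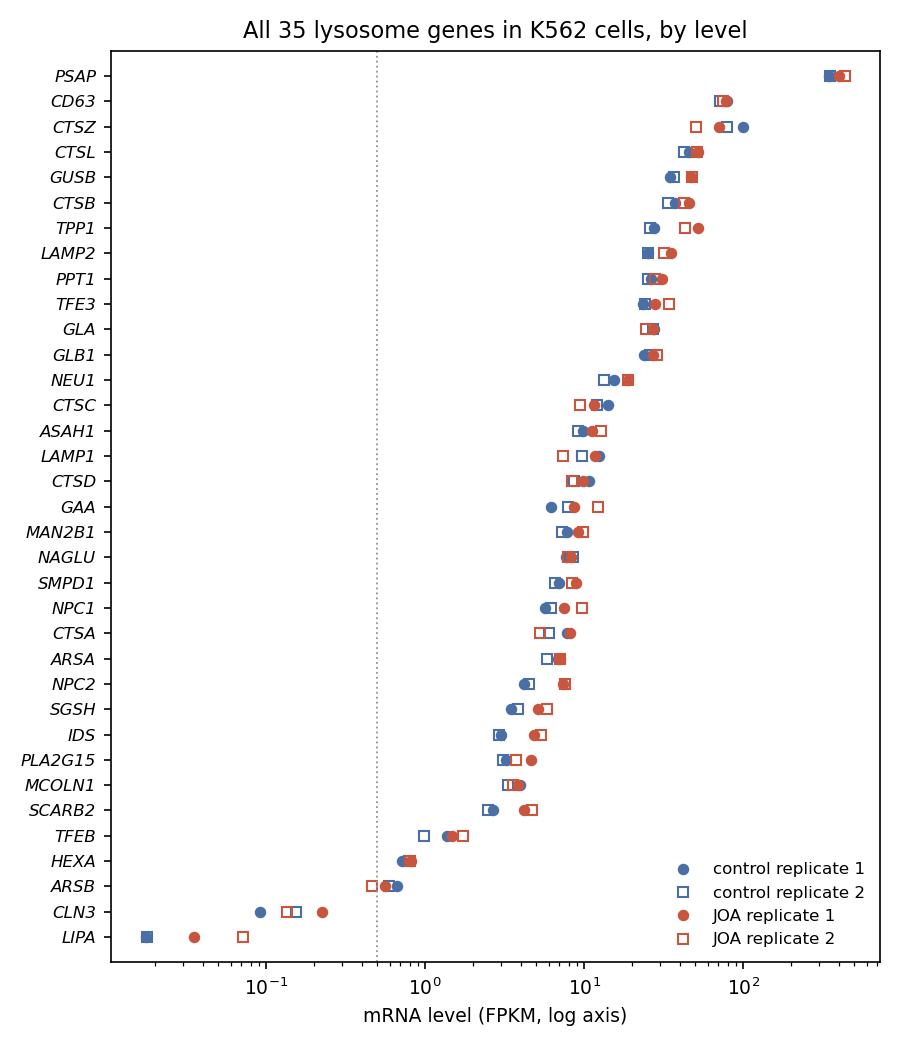
Levels of all 35 lysosome genes in K562 cells in FPKM (log axis), 1 point per library (control blue, JOA red), ordered by the mean, with the minimum mean of 0.5 FPKM dotted. PSAP stands highest at 348 to 436 FPKM, and CLN3 and LIPA stand left of the line.

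The 7 genes present in both tables showed different orders of change. In BaF3-T315I cells the order by log2 fold change was Pla2g15 (3.05), Ctsd (2.47), Lamp1 (1.75), Tpp1 (1.65), Ctsb (1.40), Npc2 (1.29) and Lamp2 (1.22), and in K562 cells it was TPP1 (0.81), NPC2 (0.73), LAMP2 (0.40), PLA2G15 (0.35), CTSB (0.31), CTSD (-0.077) and LAMP1 (-0.23). CTSD and LAMP1, among the 3 largest changes in the mouse line, were the 2 that lay below 0 in the human line. Both human values were within a standard error of 0 (0.16 for CTSD and 0.25 for LAMP1), with overlapping groups. CTSD turned to 0.015 with TPM scaling and LAMP1 to 0.095 without JOA replicate 2, so their sign in K562 cells is not settled. Taken against the median of all genes in each line, the mouse values were 1.33 to 3.16 and the human values -0.32 to 0.71. Several neighbours in either order, such as Ctsb and Npc2, or PLA2G15 and CTSB, differed by less than a standard error. LAMP1 was rank 4959 of 35141 genes by level in K562 cells, where Lamp1 was rank 24 of 22457 in BaF3-T315I cells. The tables were normalized separately and hold different species, so the difference between the lines was not tested.

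**Figure D4:**
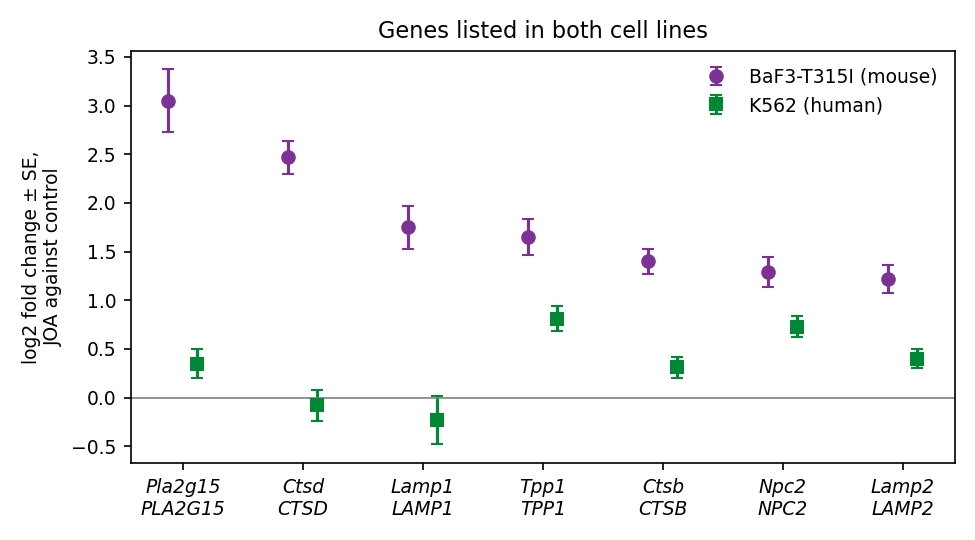
Log2 fold change of FPKM + 0.5, JOA against control, with standard errors from limma (n = 2 libraries a group), for the 7 genes listed in both lines, mouse in purple circles and human in green squares. The mouse values run from 1.22 to 3.05, and the human values from -0.23 for LAMP1 to 0.81 for TPP1.

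Set against the promoter sequences above, the genes with CACGTG in a promoter window had a lower median change in K562 cells than those without it. The 8 tested genes with CACGTG in a promoter window had a median log2 fold change of -0.018 and a range of -0.23 to 0.53, and 2 of them, GAA and NEU1, had both JOA values above the controls. The 17 tested genes with a promoter window but no CACGTG had a median of 0.33 and a range of -0.57 to 0.81, and 14 had both JOA libraries above, as had 36.8% of all genes tested. LAMP1 with its 6 CACGTG sites stood at -0.23, and TPP1, NPC2, IDS and SCARB2, which have no CACGTG in their windows, at 0.68 to 0.81. Only CACGTG and TCACGTGA were searched, so other forms of the site in these promoters were not counted. TCATGTGA and TCACATGA, which the given TPP1 bases hold, are among the forms left out. LAMP2, CTSB, HEXA, ASAH1, PSAP, NAGLU, ARSA and SGSH had no matched window and stand in neither group, at 0.0048 to 0.53. These counts describe a chosen list, and no test was made. A match is no evidence of binding, and the windows cover only the bases next to a gene start. The promoters of the mouse genes were not analysed here.

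**Figure D5:**
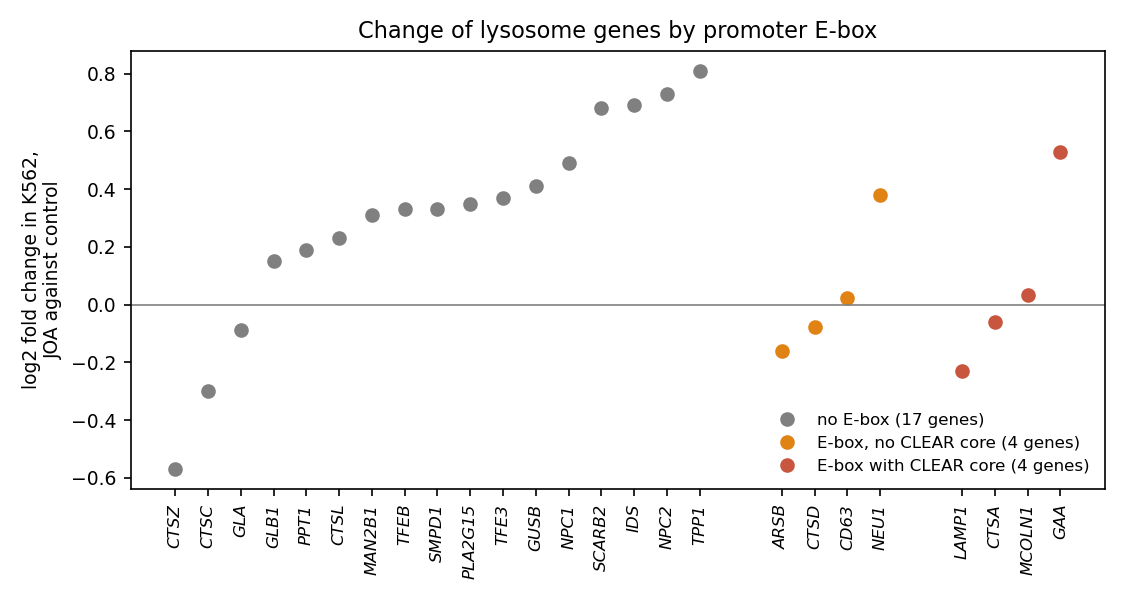
Log2 fold change in K562 cells, JOA against control, of the 25 tested lysosome genes with a RefSeq promoter window, in groups without CACGTG (17 genes, grey), with CACGTG but not TCACGTGA (4, orange) and with TCACGTGA (4, red). Of the 8 genes with CACGTG, the only E-box form searched, NEU1 at 0.38 and GAA at 0.53 are the highest, and LAMP1 at -0.23 is the lowest.

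Other genes of the lysosome, from 7 lists that hold none of the 35, were also mostly above 0 in K562 cells, 111 with a positive and 38 with a negative log2 fold change, where 62.3% of all genes tested were positive. Like the 35, these lists were chosen with earlier results of these data known, so their counts are no independent support. Of 149 tested genes on these lists, limma called 0 higher and 0 lower (smallest adjusted p = 0.185), while 31 were higher with an unadjusted p under 0.05 (11.4% of all genes tested) and 4 lower (5.82%). With the fold threshold added, 7 were higher and 0 lower, and the 7 of 149 were no larger a share than the 5.38% of all genes. Their median log2 fold change was 0.18, and in 83 the JOA values both exceeded the controls (36.8% of all genes tested), while in 18 both were below (18.3%), shares that also apply to the counts by list that follow. The median was highest, at 0.37, for 30 further hydrolases and their activators, of which 23 had both JOA libraries above and 2 below. Among these, GALC, which breaks down galactosylceramide, had 3.89 and 4.23 FPKM in the controls and 6.48 and 6.33 FPKM with JOA, a log2 fold change of 0.60 (limma adjusted p = 0.236). The nuclease gene DNASE2 had a log2 fold change of 0.59 with overlapping groups, and the thioesterase gene PPT2 one of -0.45.

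Of 22 further membrane proteins, 13 had both JOA libraries above and 1 below, with a median of 0.19. LAPTM5, a lysosomal membrane protein of hematopoietic cells, had 27.4 and 25.9 FPKM in the controls and 59.7 and 66 FPKM with JOA. Its groups were tight and far apart, with a log2 fold change of 1.22 (SE 0.10, limma adjusted p = 0.185), the largest of the 149 genes. SLC17A5, which exports sialic acid from the lysosome, had a log2 fold change of 0.55, and PIP4P1 one of -0.13.

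The proton pump that acidifies the lysosome, the V-ATPase, stood near all genes, with a median of 0.094 over 16 subunits and accessory proteins, 7 above and 2 below. Its subunit genes ATP6V0A2 and TCIRG1 had log2 fold changes of 0.52 and 0.35, and ATP6V1A one of -0.31. The 18 tested genes of the other MiT/TFE factors and of their regulators, among them mTORC1, Ragulator and the folliculin complex, had a median of 0.11, with ZKSCAN3, a repressor of autophagy and lysosome genes, at 0.57, FNIP1, a partner of folliculin, at 0.29 and RPTOR, a subunit of mTORC1, at -0.30. For 22 genes of mannose 6-phosphate tagging and sorting the median was 0.07 and 0 had an unadjusted p under 0.05, with the adaptor gene AP1S2 at 0.30, the sorting receptor gene SORT1 at 0.24 and AP1B1 at -0.26. The 30 tested autophagy genes had a median of 0.27, with 18 above and 4 below, the receptor genes CALCOCO2 at 0.71 and NBR1 at 0.63 and the protease gene ATG4D at -0.20. The 11 genes of lysosome fusion and positioning had a median of 0.19, with VPS39 at 0.27 and RILP at -0.29.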

How the data were processed

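The authors made the deposited FPKM values from TruSeq Stranded mRNA libraries, 1 column per library. Trimmomatic, HISAT2, HTSeq and Cufflinks, and the builds hg38 and mm10, appear in the submitters' processing notes without versions. The paper's methods name TPM, but the column sums differ between libraries. With GENCODE 29 exon lengths, 96.4% of the K562 values of 25508 genes under 1000 reads came to whole reads within 0.05. BaF3-T315I depth is relative only. Symbols were found for 34749 of 35141 human identifiers. Each line was fitted alone with limma 3.58.1 in R 4.3.3, two-sided, with a variance trend, no block and 2 residual degrees of freedom. The fit was tested on simulated data. An exact permutation of 2 against 2 libraries cannot go below p = 0.333 and was not used. Python 3.11.15 with numpy 2.4.6 and pandas 2.3.3 served for the tables, and matplotlib 3.10.9 for the plots. The members and lists were chosen with earlier results of these data known.

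Genes given with all their values were TFEB, TFE3, the 7 genes with a mouse counterpart, the 6 largest and 4 smallest log2 fold changes in K562 cells, the 3 highest levels, the genes under the minimum mean, and all 7 mouse genes. Of each other list, the 2 largest changes and the smallest were named at a mean of at least 5 FPKM. A gene that this rule names is not reported here. Intervals from reads without molecular identifiers would cover counting error only. Alternatives were other pseudocounts, minimum means, scalings, no variance trend, a replicate block, voom weights on recovered reads, and each library left out.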

Additional observations from a re-analysis of the deposited data

How the results depend on the processing

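All 7 genes in BaF3-T315I cells stayed higher and called under the 9 alternatives that kept all libraries. With a library left out, 1 residual degree of freedom remains, the lone library is assumed to vary like the other group, and 0 to 7 were called. In K562 cells 0 members were called at an adjusted p under 0.05 under each of the 14 alternatives. The 4 higher by unadjusted p and fold became 2 with a minimum mean of 5 FPKM, which leaves out IDS and SCARB2, 2 with median-ratio scaling, 2 with quantile normalization and 7 with TPM scaling, and 4 to 7 with a library left out. The 0 lower by that rule became 1 with median-ratio scaling, and 0 to 1 with a library left out. The median log2 fold change of the members, 0.31, was 0.26 with a pseudocount of 1, 0.26 without a minimum mean, 0.26 with a minimum of 5 FPKM, 0.40 with TPM scaling, 0.16 with median-ratio scaling and 0.22 with quantile normalization, and 0.23 to 0.35 with a library left out. The median of all genes moved with the scaling too, to 0.18, -0.029 and 0.0027. CTSD turned to 0.015 with TPM scaling, CD63 to -0.12 with median-ratio scaling. With a library left out CTSD ran from -0.23 to 0.077, CD63 from -0.058 to 0.10 and LAMP1 from -0.54 to 0.095. On the other lists, the 0 lower genes became 1 with median-ratio scaling. The members with TCACGTGA were 4 rather than 5 in the 250 bases before the start.

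The replicate numbers are shared between groups, with 2 pairs and no label that pairs them. The differences between replicates 1 and 2 correlated between control and JOA libraries across genes at 0.19 for K562 and 0.012 for BaF3-T315I. With a replicate block, 7 BaF3-T315I genes (adjusted p = 0.0194 to 0.0211) and 0 K562 genes (smallest adjusted p = 0.0902) were called, so it changed no call. The cause of these shifts was not tested. Few reads limit LIPA, CLN3, ARSB and TFEB.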
